A study of Mus musculus with 7 samples.

Results

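The genes described here are Ash1l, its complex partners Morf4l1 and Rbbp4, and 6 further genes for enzymes known or reported to methylate lysine 36 of histone H3 (H3K36). The enzymes are Nsd1, Whsc1 (now Nsd2), Whsc1l1 (now Nsd3), Setd2, Smyd2 and Setmar. They were chosen by name, and all 9 had a row among the 23413 gene symbols of the tables. Their transcripts were followed in single cortical cells of 7 littermate mouse embryos, collected at E18.5, shortly before birth. The 4 mutants were Emx1CreERT2;Ash1lfl/fl (replicates 10, 11, 12 and 17), with both Ash1l alleles floxed and a tamoxifen-dependent Cre. The 3 controls were Ash1lfl/fl (replicates 14, 15 and 16), with the same floxed alleles and no Cre. Both groups shared the dam's tamoxifen, 100 mg/kg at E10.5, so no embryo was free of the drug or of loxP sites. Emx1 drives the Cre in progenitors of the dorsal telencephalon, the source of cortical glutamatergic neurons, whereas cortical interneurons are born outside this lineage. The labels gave no sex and no library batch, and no littermate with the Cre and unfloxed Ash1l was among the samples.

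H3K36 methylation marks transcribed chromatin and limits the spread of Polycomb marks. Ash1l and the Nsd enzymes add the lower methylation states, and Setd2, which travels with elongating RNA polymerase II, adds the trimethyl state in mammals. Ash1l belongs to the trithorax group, first defined in Drosophila, and its catalytic activity is raised by the chromodomain protein Morf4l1 (also MRG15). Rbbp4 is a histone-binding WD-repeat protein that also serves in Polycomb and chromatin assembly complexes. Because several enzymes write the same mark, the data were asked whether the transcripts of the others stood higher where Ash1l was targeted.

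Seq-Well captures polyadenylated RNA on barcoded beads, 1 library per embryo, and counts transcripts by unique molecular identifiers (UMIs). Of 50191 barcodes, 23005 were kept because they held 500 genes or more and no more than 10% mitochondrial UMIs, 2114 to 4285 per embryo. The kept cells held 5316785 to 9460628 UMIs per embryo, with a median of 1241.5 to 2133 UMIs per cell, the highest in control 14. Across libraries the kept barcodes numbered 22967 distinct sequences, an excess of 38. Libraries differed by more than counting error, as chi-square divided by the number of genes was 4.98 to 25.8 over all pairs. The highest value was between mutant 12 and control 15, and pairs within a genotype had 4.98 to 16.8. Levels are given as CPM, the UMIs of a gene scaled to a common total of UMIs in the same cells. A poly(A)-primed CPM is not scaled by transcript length. Levels were compared between cells and embryos and not between genes.

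Cells were assigned to classes by markers that include none of the 9 genes, and 17.8% to 27.1% of cells per embryo stayed without a class. A total of 8 classes, including the upper- and deep-layer subsets of the glutamatergic class, had at least 20 cells in every control and are described. Among the 10 genes that stood highest in each class against the rest, 4 to 9 were its own markers. None was a marker of another class, the layer lists aside (Ldb2, a deep-layer marker, was among those of the glutamatergic class). The same markers set the gate, so this count is largely fixed by it and is no independent check of the classes. The cycling class can hold cells of both dorsal and ventral origin, since it was gated on cell cycle genes alone. Glutamatergic-gated cells made up 38.7% to 46.0% of the kept cells in mutants and 45.3% to 53.5% in controls. In sums over many cells, fewer cells that express a gene and less of its RNA per cell cannot be told apart.

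Ash1l is annotated on chromosome 3 at 88950622 to 89079375 (mm10, GENCODE M21, plus strand), a protein-coding gene of 128.8 kb. Its 3′ end is not covered by another gene, but 352 exonic bases overlap Dap3 on the opposite strand. Morf4l1 lies on chromosome 9 at 90091665 to 90114774 and Rbbp4 on chromosome 4 at 129307100 to 129335370, both on the minus strand. Among the Nsd genes, Nsd1 lies on chromosome 13 at 55209782 to 55318325, Whsc1 on chromosome 5 at 33820725 to 33897975 and Whsc1l1 on chromosome 8 at 25601601 to 25719667. Setd2 lies on chromosome 9 at 110532597 to 110618633, Smyd2 on chromosome 1 at 189880492 to 189922363 and Setmar on chromosome 6 at 108065045 to 108077122. Whether counting used the strand is not given in the sources used here. Reads at the 3′ ends of Whsc1, Smyd2 and Rbbp4, which Nelfa, Gm37422 and Sync overlap on the opposite strand, could therefore be shared. Of these partners, Gm37422 had no row, Nelfa had 1169 UMIs and Sync 28 over all kept cells. Away from the 3′ ends, exons of Morf4l1 overlap Gm26882 (6 UMIs) and exons of Rbbp4 overlap Gm26722 (275 UMIs), both on the opposite strand. Morf4l1 has 2 other genes that match at least 200 of the last 500 bases of its longest coding transcript, at up to 93.7% identity. Its counts are uncertain to the extent that reads were split between such copies.

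In control embryos Ash1l RNA was found in every class described. Its mean level was 186 ± 26.6 CPM in glutamatergic-gated cells (SD, n = 3, here and for the class levels that follow). The upper-layer value was 184 ± 26.2 CPM and the deep-layer value 197 ± 32.6 CPM, and both fall within each other's spread. Progenitors lay within that spread, with 198 ± 23.8 CPM in radial-glia-gated, 191 ± 46.4 CPM in intermediate-progenitor-gated and 199.7 ± 55.6 CPM in cycling-gated cells. Cajal-Retzius-gated cells, early-born neurons of the marginal zone, had 219.8 ± 60.6 CPM and interneuron-gated cells the highest mean, 248 ± 60.9 CPM. No neighbours in this order differed by more than their SD. Control 14 was the lowest of the 3 controls in all 8 classes, from 136 CPM in cycling cells to 182 CPM in interneurons.

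Against glutamatergic-gated cells of the same embryos, only the interneuron difference passed, though 1 of 10 alternatives called Ash1l higher in radial glia. Ash1l was higher in interneurons by 0.38 on the log2 scale (SE 0.11, edgeR quasi-likelihood test with Benjamini-Hochberg adjusted p = 0.0137). Of all 9333 genes tested in that contrast, 15.7% were called, and of the 8 genes of the set that could be tested 3 were, Ash1l and Whsc1l1 higher and Smyd2 lower. The interneuron call of Ash1l was lost in 4 of 10 alternatives. Without control 15, where interneurons reached 302 CPM, the difference was 0.29 with an adjusted p of 0.29, and without control 16 it was 0.36 with an adjusted p of 0.0947. With cells of at most 5% mitochondrial share it was 0.34 (adjusted p = 0.159) and without the low-count filter 0.28 (adjusted p = 0.158). The mutants gave 0.56 (adjusted p = 8.7e-04), but Ash1l was targeted in their glutamatergic lineage, so this is no independent support. Deep- and upper-layer cells of controls differed in Ash1l by 0.07 (95% interval −0.11 to 0.25), and none of the 8 genes was called between the layers by edgeR, where 14.8% of all genes were. At an unadjusted p under 0.05, Whsc1l1 alone passed between the layers (−0.31, adjusted p = 0.0699), as did 2619 of all 10214 genes, and DESeq2 called 0 of the 8.

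**Figure D1:**
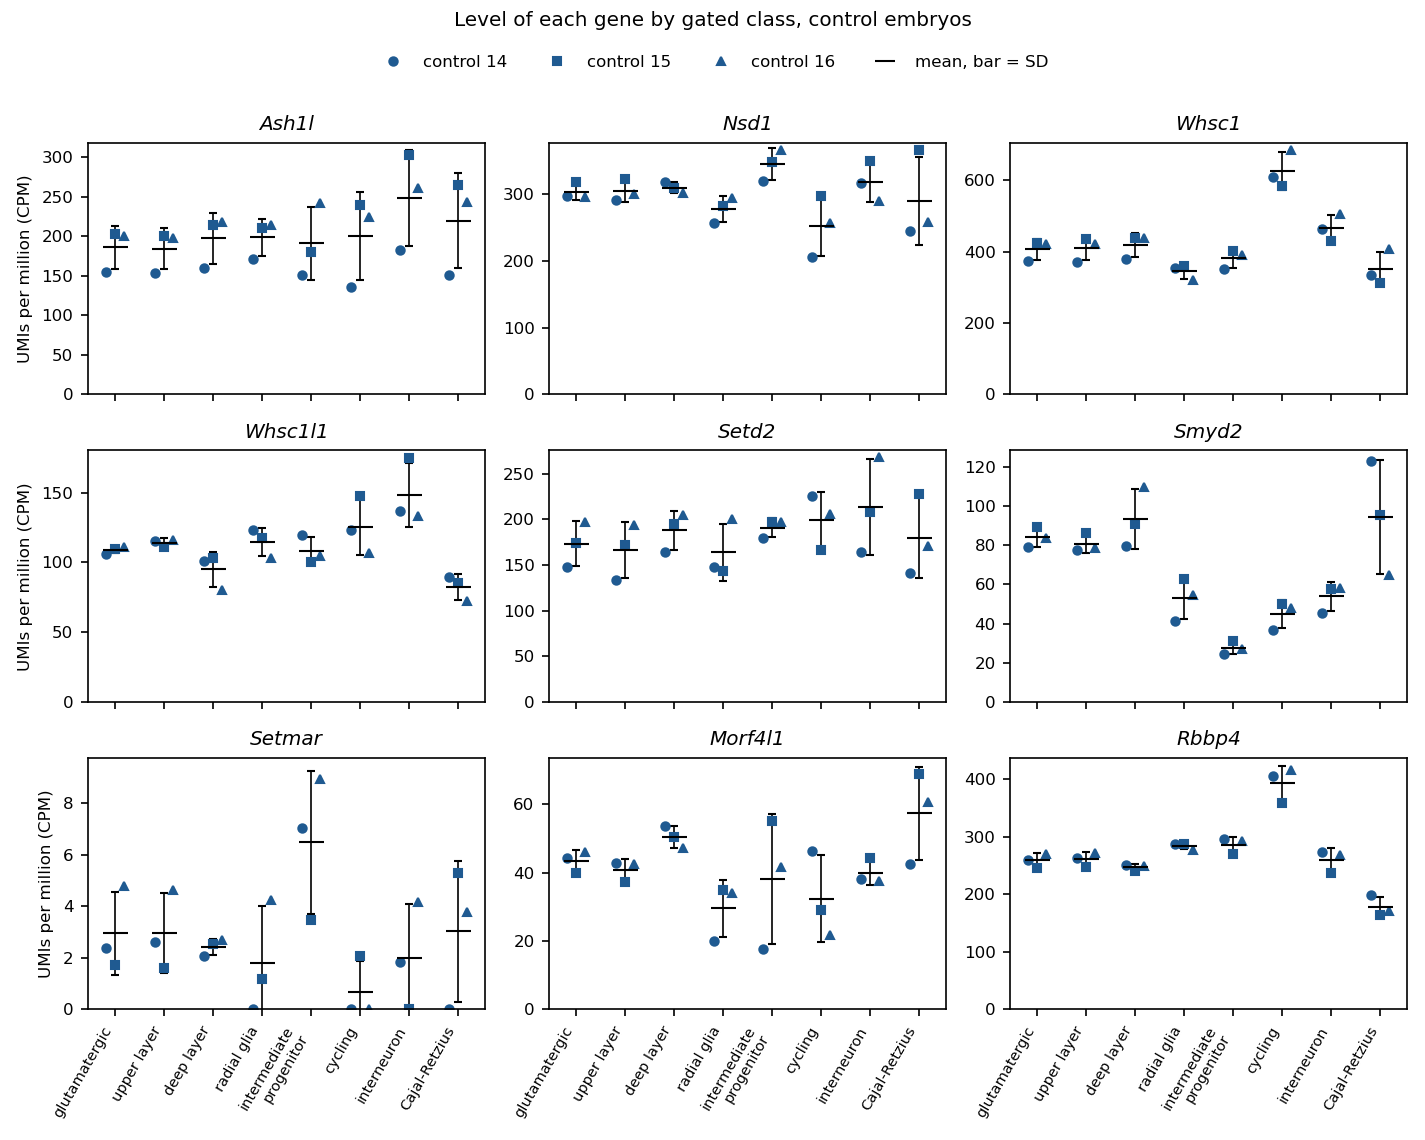
Level of each of the 9 genes in CPM (vertical axes, each from 0) in 8 gated classes of the 3 control embryos, with the mean and SD. The classes of Ash1l and Setd2 overlap in their spread, Nsd1 runs from 253 CPM in cycling cells to 345 CPM in intermediate progenitors, Whsc1 and Rbbp4 stand highest in cycling cells (626 and 393 CPM), and Smyd2 is lowest in intermediate progenitors (27.5 CPM).

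Class means of the complex partners spanned a wider relative range than those of Ash1l, a comparison between genes that was not tested. Rbbp4 had 393 ± 30.8 CPM in cycling cells against 259 ± 12.3 CPM in glutamatergic cells and 178 ± 17.9 CPM in Cajal-Retzius cells. Its 3 control values in cycling cells, 405, 358 and 415 CPM, all lay above every value of the other 7 classes. The difference from glutamatergic cells was 0.60 (SE 0.10, adjusted p = 2.84e-06, edgeR), in a contrast where 43.7% of all genes were called. In Cajal-Retzius cells Rbbp4 was lower by 0.57 (adjusted p = 0.00165, with 19.7% of genes called, a contrast added after the classes were counted). The cycling difference kept an adjusted p under 0.05 in every alternative tried, the mutant embryos included, where it was 0.59. Morf4l1, read from 35 to 639 UMIs per class over the 3 controls, spanned 29.6 ± 8.4 CPM in radial glia to 57.4 ± 13.6 CPM in Cajal-Retzius cells. It was lower in radial glia than in glutamatergic cells by 0.56 (adjusted p = 0.0313), where 46.8% of all genes were called. This call was lost without any 1 of the 3 controls (adjusted p = 0.0516 to 0.179), and also at the 5% mitochondrial limit, with a stricter marker gate and in DESeq2 (adjusted p = 0.0649, 0.0853 and 0.0805).

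Of the Nsd genes, Whsc1 was the one that followed the cell cycle gate. Whsc1 stood at 608, 584 and 685 CPM in cycling cells of controls 14, 15 and 16, against 373, 424 and 421 CPM in glutamatergic cells. The cycling values lay above the values of the other classes in all 3 embryos. The difference was 0.62 (SE 0.10, adjusted p = 1.26e-06) and lay between 0.47 and 0.70 in the alternatives, with an adjusted p under 0.05 in all of them. In radial glia, which the gate separates from cycling cells, Whsc1 was instead lower than in glutamatergic cells by 0.28 (adjusted p = 0.0184), a call lost without control 15 or 16 (adjusted p = 0.0952 and 0.143) and at the 5% mitochondrial limit (adjusted p = 0.0591). Nelfa, which overlaps the 3′ end of Whsc1, was higher in cycling cells by 1.12 and in radial glia by 0.88 (adjusted p = 5.62e-04 and 0.00134), and its part in the Whsc1 values was not tested. Nsd1 ran from 253 ± 45.8 CPM in cycling cells to 345 ± 23.9 CPM in intermediate progenitors. None of its class differences passed in edgeR, the nearest being −0.25 in cycling cells (adjusted p = 0.0736). In the alternatives Nsd1 was called lower in radial glia in 1 of 10 and in cycling cells in 1 of 9. Whsc1l1 was lowest in Cajal-Retzius cells (82.2 ± 9.1 CPM) and highest in interneurons (148 ± 23.2 CPM). Its interneuron difference of 0.41 (adjusted p = 0.0238) was lost without control 14 or 15 (adjusted p = 0.0562 and 0.393), at the 5% mitochondrial limit (adjusted p = 0.0596) and without the low-count filter (adjusted p = 0.215).

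Setd2, the trimethylating enzyme, lay between 164 ± 31.5 CPM in radial glia and 213 ± 52.7 CPM in interneurons. It was called in no contrast by edgeR with the main settings, and 1 of 10 alternatives called it lower in radial glia. At an unadjusted p under 0.05 it passed in interneurons alone (0.27, adjusted p = 0.153), where 2568 of 9333 genes did. Smyd2, which methylates many proteins besides histones, showed the widest range of the 8 genes tested. It stood at 79.2, 89.1 and 83.6 CPM in glutamatergic cells of the 3 controls and at 24.6, 31.1 and 26.9 CPM in intermediate progenitors. These ranges lie apart, and the progenitor values rest on 25 UMIs in all. The difference was −1.67 (SE 0.25, adjusted p = 1.91e-06, with 22.4% of genes called). Smyd2 was also lower in cycling cells by 0.89 (adjusted p = 3.09e-04), in radial glia by 0.69 (adjusted p = 3.16e-04) and in interneurons by 0.67 (adjusted p = 0.00589). The interneuron call was lost without control 15 (adjusted p = 0.109) and at the 5% mitochondrial limit (adjusted p = 0.0641). In mutant embryos the intermediate progenitor difference was −0.71 (adjusted p = 0.00526), with mutants 10 and 17 at 67.1 and 64.8 CPM there. Setmar, in primates fused to a transposase domain, was found too rarely to describe by class. It had 66 UMIs over all control cells and 67 over all mutant cells, 0.7 to 6.5 CPM by class in controls, and was left out of every class contrast by the low-count filter.

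Likeness to Ash1l was measured as the Pearson correlation of log2(CPM + 1) over the 8 class means of the controls, among 7821 genes with a mean of at least 20 CPM. The classes come from the same 3 libraries, the layer subsets lie within the glutamatergic class, and Ash1l itself differed little between classes, so the order of genes is a description. Highest was Peg3, an imprinted zinc finger gene (r = 0.98), followed by Rce1, Rbbp6, Pik3cb and Ncoa3 (r = 0.93 to 0.96). Like Ash1l, Peg3 was highest in interneurons (281 CPM) and had 115 CPM in glutamatergic cells. Of the other 8 genes, Setd2 came nearest (r = 0.66, rank 277), ahead of Whsc1l1 (0.30), Morf4l1 (0.18), Whsc1 (0.13) and Nsd1 (0.02). Smyd2 had r = 0.00 and Rbbp4 r = −0.28, and Setmar fell under the level required.

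Few transcripts of these genes were read in any 1 cell. In glutamatergic-gated cells thinned to 1000 UMIs, 21% to 26% per embryo held no UMI of the 9 genes and 36.4% to 39.1% held a UMI of exactly 1 of them. Co-detection was set against the product of the 2 genes' own shares within each embryo. Without thinning, cells with a UMI of Ash1l and one of Setd2 numbered 1097 against 822 expected, a ratio of 1.33. All 28 pairs with at least 5 expected cells in every embryo stood above 1 there (median 1.30), before cells were brought to 1 depth. After thinning, the pair was found in 207 cells against 187 expected, a ratio of 1.10, the highest of the 24 pairs with at least 5 expected cells in every embryo. The lowest of these 24 was Ash1l with Smyd2, 78 cells against 88.0 expected (0.89), and the median was 1.01 with 13 pairs above 1. By embryo, Ash1l with Setd2 ran from 0.95 to 1.30, with 5 of 7 embryos above 1. Ash1l with Smyd2 ran from 0.37 to 1.14, with 4 of 7 embryos above 1. Setmar pairs had at most 7.28 expected cells over all embryos and ratios from 0 to 1.91, and are left aside here. Among the other pairs with fewer expected cells in some embryo, Setd2 with Morf4l1 reached 1.17 (58 cells against 49.5 expected). Whsc1l1 with Morf4l1 stood at 0.88 (29 against 32.8). Ash1l gave 0.94 with its partner Rbbp4, with embryos on both sides of 1. With Morf4l1 it gave 0.98, from 45 cells against 46.1 expected and as few as 3.87 expected in 1 embryo, too few to read by embryo.

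**Figure D2:**
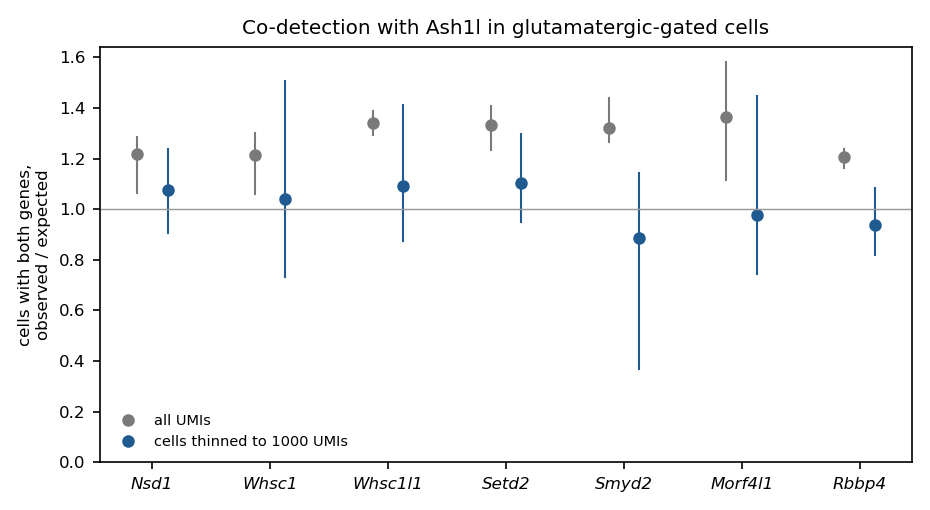
Cells with a UMI of both Ash1l and the named gene, observed over expected, in glutamatergic-gated cells. Points are all 7 embryos pooled and lines the lowest to the highest embryo, before thinning (grey) and after thinning each cell to 1000 UMIs (blue). The pooled thinned ratios lie between 0.89 and 1.10, and those of single embryos between 0.37 and 1.51. Setmar is left out, with 3.31 cells expected.

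Ash1l was then compared between genotypes, as the check on the targeted gene. The floxed exons are not named in the labels and the reads come from poly(A) ends, so a transcript that lost an internal exon would still be counted. These counts therefore cannot show how many alleles were recombined. In glutamatergic-gated cells Ash1l stood at 139, 136, 151 and 119 CPM in mutants 10, 11, 12 and 17. Controls 14, 15 and 16 had 155, 202 and 199.8 CPM. All 4 mutants lay below all 3 controls, though control 14 was only a little above mutant 12. The means were 136 ± 13.1 CPM (n = 4) and 186 ± 26.6 CPM (n = 3), a 1.36-fold lower level. The log2 difference was −0.45 (SE 0.12, 95% interval −0.70 to −0.20). It did not pass over the 11471 genes tested (adjusted p = 0.268, edgeR). Of those genes, 5.26% had all mutants below all controls.

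The layers of the glutamatergic class gave unlike values. In deep-layer-gated cells Ash1l had 115, 122, 146 and 85.3 CPM in the mutants, read from 60 to 75 UMIs each. The controls had 160, 214 and 218 CPM there, read from 155 to 244 UMIs, and no value of the groups crossed. Among all genes tested in deep-layer cells, 5.06% lay apart in that direction. The difference was −0.75 (SE 0.17, 95% interval −1.09 to −0.42, adjusted p = 0.0915), a 1.69-fold lower level. In upper-layer-gated cells the mutants had 130.1 to 144 CPM and the controls 154, 200.4 and 198 CPM, again without overlap (4.62% of all genes lay so). The upper-layer difference was −0.41 (SE 0.12, adjusted p = 0.231). The effect in deep minus that in upper layers was −0.36 (SE 0.14, unadjusted p = 0.0132, adjusted p = 0.834 by edgeR), a test added after both values were seen. Without mutant 17 it was −0.24 (unadjusted p = 0.124).

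Outside the glutamatergic neurons, mutant and control values of Ash1l overlapped. Dorsal progenitors, the radial glia and intermediate progenitors together, had 109 to 212 CPM in mutants and 165 to 221 CPM in controls (difference −0.27, SE 0.18, adjusted p = 0.922). In cycling cells the ranges were 108 to 178 CPM and 136 to 239 CPM (−0.44, SE 0.22, adjusted p = 0.985). Interneurons, born outside the Emx1 lineage, had 211, 233, 213 and 176 CPM in mutants against 182, 302 and 261 CPM in controls (−0.23, SE 0.18, 95% interval −0.59 to 0.13, adjusted p = 0.819). The effect in glutamatergic cells minus that in interneurons was −0.20 (95% interval −0.49 to 0.09, unadjusted p = 0.166, adjusted p = 0.997). Whether the effect was larger within the Cre lineage than outside it was therefore not resolved at this depth. Interneuron-gated cells also held the glutamatergic markers, summed to 475 to 946 CPM in mutants and 603 to 1042 CPM in controls. In glutamatergic-gated cells these markers summed to 2350 to 2632 CPM and 2504 to 2919 CPM. The part of such RNA in the interneuron values of Ash1l was not tested.

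**Figure D3:**
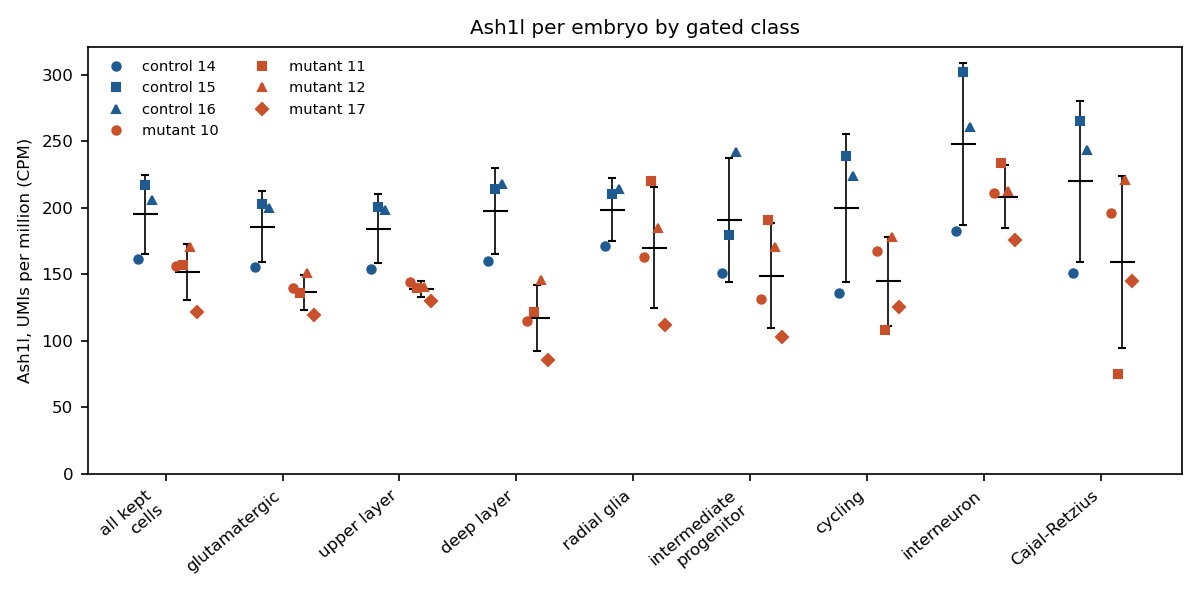
Ash1l level in CPM in each embryo, over all kept cells and in 8 gated classes, with the group mean and SD. Mutants lie below all controls in glutamatergic, upper-layer and deep-layer cells and overlap them in the other classes. Control 14 is the lowest control throughout, and mutant 17 the lowest mutant in all kept cells and in 6 of the 8 classes.

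Over all kept cells the mutants had 156, 157, 170 and 121 CPM of Ash1l and the controls 162, 217 and 206 CPM, with mutant 12 above control 14. The difference was −0.39 (SE 0.12, adjusted p = 0.336). No gene of the set was called between genotypes in any of the 7 groupings by edgeR, and DESeq2 called 0 as well. At an unadjusted p under 0.05, Ash1l alone passed in all kept cells (beside 1350 of 12893 genes), glutamatergic (1244 of 11471), upper-layer (1090 of 10388) and deep-layer cells (699 of 8779). Nsd1 alone passed so in cycling cells (355 of 7466), and none of the 9 did in dorsal progenitors and interneurons. By adjusted p, 0.0233% of all genes were called in all kept cells, 0.0436% in glutamatergic and 0.0674% in upper-layer cells, and 0% in the other 4 groupings. The estimate for Ash1l was below 0 in all 89 alternative fits over the groupings, from −0.89 to −0.07. It passed in 4 of them. Without the low-count filter it was called in glutamatergic (adjusted p = 0.0377) and deep-layer cells (adjusted p = 0.00177), and in deep-layer cells also without mutant 12 or control 14 (adjusted p = 0.0182 and 0.0223).

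Other measures were read beside Ash1l in each embryo. Malat1, an abundant nuclear RNA, was lowest in mutant 17 (627 CPM in glutamatergic cells), the mutant with the least Ash1l. Among controls it was lowest in control 14 (1043 CPM), where Ash1l was lowest too, and it spanned 627 to 1917 CPM in mutants and 1043 to 2472 CPM in controls. The median mitochondrial share of kept cells was 3.50% to 4.37% in mutants and 4.14% to 5.69% in controls, lowest in mutant 12, the mutant with the most Ash1l. Summed early response genes in glutamatergic cells were 1491 to 1981 CPM and 1896 to 2296 CPM. The part of these measures in the Ash1l difference was not tested. Dap3, which overlaps Ash1l, had 99.3 to 132 CPM in mutants and 114 to 135 CPM in controls in the same cells.

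Mean shares of cells with an Ash1l UMI were likewise lower in mutants, but the order of the classes depended on depth. Glutamatergic-gated cells thinned to 1000 UMIs held an Ash1l UMI in 13.2%, 12.5%, 14.3% and 10.55% of cells in the mutants. In the controls the shares were 13.4%, 17.4% and 16.2%, and control 14 lay below mutant 12. The means were 12.6% ± 1.59 and 15.7% ± 2.05 (exact two-sided permutation test over 35 splits, p = 0.114, where the smallest p possible is 0.0286). From 111 to 316 shallower cells per mutant and 92 to 405 per control were left out. Unthinned, the shares were 22.4% ± 3.37 and 32.4% ± 2.18 (exact p = 0.0571), with median depths of 1509 to 2344 UMIs and 1623 to 2853 UMIs per cell. Thinned to 500 UMIs the groups lay apart, at 6.52% ± 0.85 and 8.72% ± 0.55 (exact p = 0.0286). In interneurons thinned to 1000 UMIs the shares were 16.5% ± 2.21 and 21.5% ± 5.24 (exact p = 0.143). At 500 UMIs they were 8.09% ± 2.42 and 14.0% ± 3.36 (exact p = 0.0857), and unthinned 24.6% ± 3.81 and 32.2% ± 3.44 (exact p = 0.0857). Mutant minus control was −4.91 percentage points in interneurons and −3.04 in glutamatergic cells at 1000 UMIs, and −5.87 and −2.20 at 500 UMIs. Unthinned it was −7.60 in interneurons and −10.0 in glutamatergic cells. By CPM the log2 difference was larger in glutamatergic cells. The difference between the classes in these shares was not tested. No class is known to lack Ash1l, so free RNA was read from barcodes with under 200 genes instead. These held Ash1l at 151 to 393 CPM, from 6 to 18 UMIs per library, and the part of free RNA in the shares was not tested.

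The other enzymes were then read for higher levels in mutants. In glutamatergic-gated cells none of the 6 lay apart between the groups, and each difference was small against its interval. Nsd1 had 344, 312, 312 and 304 CPM in mutants against 297, 318 and 296 CPM in controls, a difference of 0.07 (95% interval −0.16 to 0.29). Whsc1 differed by −0.06 (−0.29 to 0.17), from 360.0 to 429 CPM in mutants and 373 to 424 CPM in controls. Whsc1l1 differed by 0.01 (−0.22 to 0.24), with 102 to 115 CPM and 106 to 111 CPM. These intervals leave room for levels in mutants up to 1.22-fold that of controls for Nsd1, 1.13-fold for Whsc1 and 1.18-fold for Whsc1l1.

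Setd2 had 151 to 179 CPM in mutants and 148 to 197 CPM in controls, a difference of −0.05 (−0.29 to 0.19). Smyd2 had 72.9, 74.3, 68.0 and 93.9 CPM against 79.2, 89.1 and 83.6 CPM, a difference of −0.11 (−0.38 to 0.16). Mutant 17 stood above all controls in Smyd2 and the other 3 mutants below them. Upper bounds for mutants were 1.14-fold for Setd2 and 1.12-fold for Smyd2. For Setmar, read from 35 UMIs in mutants and 46 in controls, the interval of −1.08 to 0.95 sets no useful bound. Summed, the 6 enzymes had 1026 to 1109 CPM in mutants and 1006 to 1117 CPM in controls. Whsc1 and Nsd1 made up most of this sum, so it says little on the rarer enzymes. The median difference of the 6 was −0.05, with 2 of them above 0, beside −0.0012 over all genes tested.

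In deep-layer cells, where Ash1l differed most, the other enzymes again overlapped between genotypes. Nsd1 differed there by 0.00 (95% interval −0.26 to 0.26), Whsc1 by −0.03, Whsc1l1 by 0.07, Setd2 by −0.22 (−0.51 to 0.07) and Smyd2 by −0.03. Summed, the 6 enzymes had 913 to 1127 CPM in mutants and 1043 to 1139 CPM in controls of that class, the lowest in mutant 12. Most of that sum was again Whsc1 and Nsd1. Interneurons gave differences from −0.20 for Setd2 to 0.08 for Nsd1, all with an adjusted p of at least 0.869.

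Of the groupings tested between genotypes, 1 enzyme lay apart in 1. In cycling cells Nsd1 had 357, 412, 299 and 332 CPM in mutants, read from 106 to 147 UMIs each. Controls had 206, 297 and 257 CPM, from 62 to 143 UMIs, and mutant 12 exceeded control 15 by a narrow margin. The difference was 0.46 (SE 0.18, 95% interval 0.09 to 0.83, unadjusted p = 0.016, adjusted p = 0.985 by edgeR). Of the 7466 genes tested in cycling cells, 2.54% lay apart in that direction. The Nsd1 effect in cycling minus that in glutamatergic cells was 0.40 (SE 0.16, unadjusted p = 0.0186, adjusted p of almost 1), tested after the value was seen. Without control 14, which had the fewest cycling cells (87), the cycling difference was 0.35 and the difference of effects 0.25 (unadjusted p = 0.0892 and 0.144). In dorsal progenitors Nsd1 had 309 to 361 CPM in mutants and 277 to 313 CPM in controls, a difference of 0.17 (−0.12 to 0.45). Radial-glia-gated cells alone had 325, 316, 295.4 and 319 CPM in mutants and 257, 283 and 294.1 CPM in controls. These values lay apart too, mutant 12 by a narrow margin above control 16. That class was not tested between genotypes, and the share of all genes lying apart there was not counted.

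**Figure D4:**
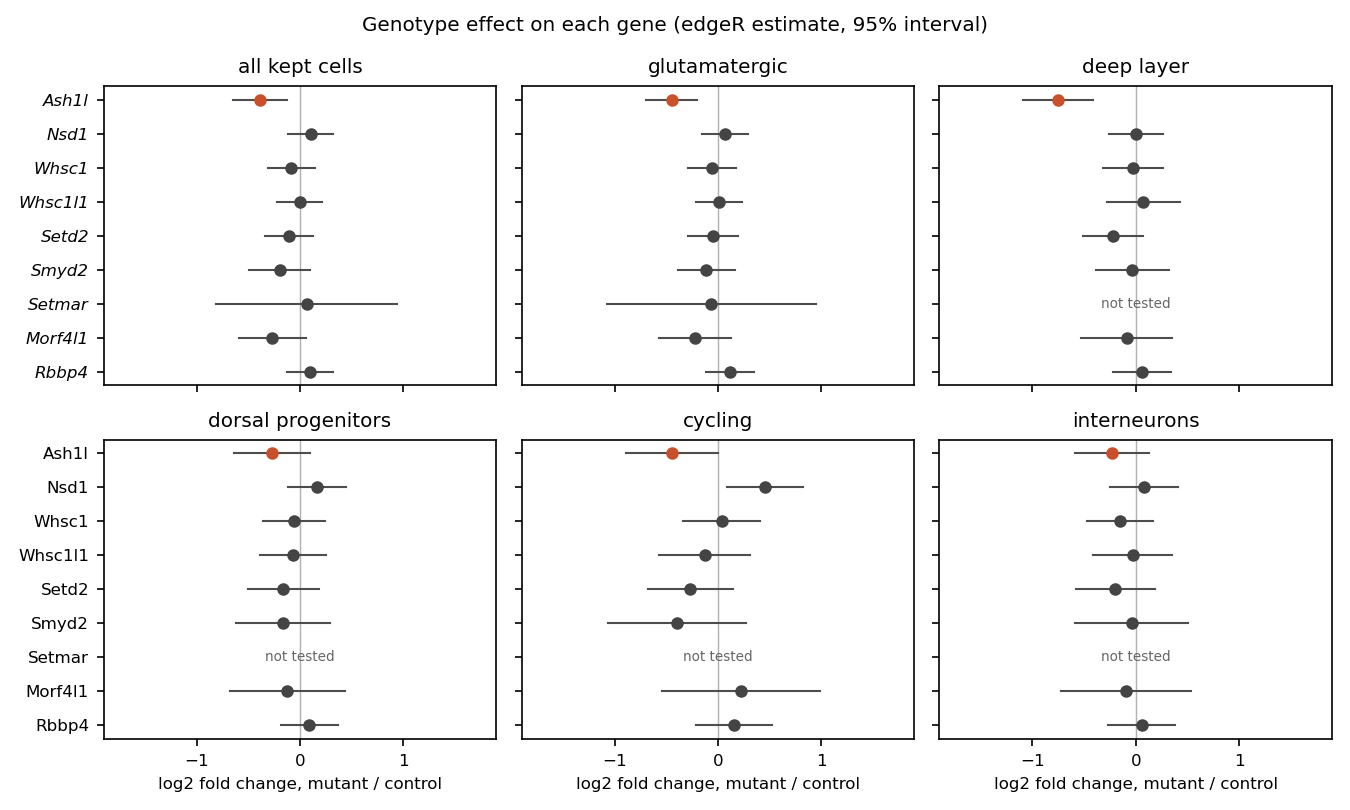
Log2 fold change of each gene, mutant over control, with its 95% interval from edgeR in 6 groupings of cells. Ash1l (orange) lies below 0 in every panel, at −0.39 in all kept cells and −0.75 in deep-layer cells. The intervals of the other genes cover 0, except that of Nsd1 in cycling cells at 0.46. The next largest estimate is −0.39, for Smyd2 in cycling cells. None passed the adjusted threshold.

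The complex partners had estimates of opposite sign in 6 of the 7 groupings, both being above 0 in cycling cells (0.23 for Morf4l1 and 0.16 for Rbbp4), and neither passed. Rbbp4 had 275, 296, 314 and 238 CPM in glutamatergic cells of the mutants and 260.2, 246 and 270.2 CPM in controls, a difference of 0.12 (−0.12 to 0.35). It overlapped between genotypes in all 7 groupings, with mutant 17 the lowest and the other 3 mutants above the controls in glutamatergic cells. Morf4l1 had 42.8, 37.5, 25.5 and 42.5 CPM against 44.3, 39.9 and 46.1 CPM, a difference of −0.22 (−0.57 to 0.13). Over all kept cells Morf4l1 stood at 40.4, 34.4, 26.0 and 39.5 CPM in mutants, each below the 40.6 to 42.8 CPM of the controls. The gap to control 14 was narrow, 4.63% of all genes lay apart in that direction, and the difference of −0.27 (SE 0.15) had an adjusted p of 0.554.

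Other genes of the H3K36 system were read from lists of 36 genes, all with a row. No list gene was called in any of the 7 groupings by edgeR, with an unadjusted p under 0.05 for 5 of 36 in all kept cells and 6 of 33 in glutamatergic cells. Over all genes, 1350 of 12893 and 1244 of 11471 had such a p in these groupings. H3K36 demethylases, which remove the mark, had 5 of 6 tested genes above 0 in glutamatergic cells, with a median of 0.20. Of all genes tested there, 49.7% were above 0. Kdm2a had a mean of 90.3 ± 6.74 CPM in mutants against 72.1 ± 3.93 CPM in controls (0.32, unadjusted p = 0.0111, adjusted p = 0.355). Its mutants all lay above its controls, and the share of all genes lying so is not given here. Kdm4a stood at 151 ± 11.8 and 123 ± 16.3 CPM, with overlap (0.30, unadjusted p = 0.0246, adjusted p = 0.401).

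Proteins that read H3K36 methylation had 9 of 13 tested genes below 0 in glutamatergic cells, with a median of −0.06, where 49.7% of all genes were above 0. Psip1, a PWWP-domain protein, had 302 ± 8.03 CPM in mutants and 391 ± 40.6 CPM in controls (−0.37, unadjusted p = 0.00289, adjusted p = 0.290). Dnmt3a, a DNA methyltransferase with a PWWP domain, had 70.6 ± 3.80 and 94.7 ± 15.2 CPM (−0.42, unadjusted p = 0.00316, adjusted p = 0.293). Both lay apart between the groups, as did 5.26% of all genes in that direction. The paralogs Rbbp7 and Morf4l2 differed by −0.13 and −0.03, and Polr2a and Iws1, of the factors around Setd2, by 0.26 and −0.08. Suz12 and Eed of the Polycomb repressive complex differed by −0.20 and 0.09, and the SET-domain genes Setd3 and Prdm9 by −0.14 and −0.30. The adjusted p of these 8 genes was at least 0.538.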

How the data were processed

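The authors deposited 1 table of whole-number UMI counts per library, genes against bead barcodes. Per the submitters' processing notes, reads were aligned with STAR to mm10. The aligner's version, the annotation, the rule for barcodes, the collapsing of UMIs and the use of strand were not given in the sources used here. Embryos were grouped by genotype from the sample titles. The genes, lists and tests were chosen with earlier results of these data known.

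Cells were kept from 500 genes upward if no more than 10% of their UMIs were mitochondrial. A cell went to the class with the largest share of its markers detected, with at least 2 markers, and ties stayed without a class. No doublet caller was run, and a strict gate (at least 3 markers and at most 1 of any other class) was an alternative. UMIs were summed per embryo and class and tested with edgeR 4.0.16 (quasi-likelihood, TMM, filterByExpr, two-sided, Benjamini-Hochberg over all genes tested), with the embryo as a fixed term between classes. The embryo was the replicate, so p-values between genotypes measure the spread between littermates. For classes and differences of effects the embryo was a fixed term. Those p-values measure the spread left after each embryo's own level is removed. The 95% intervals come from the same fits. The procedure was tested on simulated counts. DESeq2 1.42.0 and RLE size factors, no low-count filter, cell filters of 300 genes or 5% mitochondrial share and leaving out each embryo were alternatives. Shares were compared by an exact permutation test.

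All 9 genes are named. List genes are named if called between genotypes or, since none was, as the 2 with the smallest unadjusted p per list in glutamatergic cells. Coordinates come from GENCODE M21 by symbol (Whsc1 as Nsd2, Whsc1l1 as Nsd3). Shared sequence was sought with BLAST 2.17.0 for the last 500 bases of each gene's longest coding transcript. Analyses ran in R 4.3.3 and Python 3.11.15.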

Additional observations from a re-analysis of the deposited data

Results flagged for a closer look

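Among 82 sets of 4 mutant values, 1 set per gene and class, 6 (7.32%) held a value far from the other 3 by Dixon's test, where chance flags about 1 in 20. Whsc1 in intermediate-progenitor-gated cells was 363 CPM in mutant 10, against 323 to 329 CPM in the others. Whsc1 in Cajal-Retzius-gated cells was 414 CPM in mutant 11, against 347 to 357 CPM. Whsc1l1 in cycling-gated cells was 100.2 CPM in mutant 11, from 26 UMIs, against 116 to 119 CPM. Smyd2 was highest in mutant 17 in upper-layer-gated cells (96.9 CPM, from 184 UMIs, against 67.5 to 70.1 CPM). Smyd2 stood highest in that embryo in cycling-gated cells too (47.0 CPM, from 15 UMIs, against 28.5 to 31.6 CPM). Morf4l1 was lowest in mutant 12 in deep-layer-gated cells (31.4 CPM, from 14 UMIs, against 48.6 to 51.2 CPM).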

How the results depend on the processing

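No paired analysis was possible because the mutant and control embryos share no replicate numbers. Among the 9 genes, no result that was called changed sign in any alternative. For other genes only the number called was followed, not the sign. Genes called between genotypes, 3 in all kept cells, 5 in glutamatergic, 7 in upper-layer and 0 in deep-layer, dorsal-progenitor, cycling and interneuron cells, became 165, 148, 112, 33, 30, 9 and 22 with no low-count filter. DESeq2 gave 21, 17, 14, 1, 1 and 1 (all, glutamatergic, upper, deep, dorsal progenitor, interneuron). A 5% mitochondrial limit gave 5, 8, 7 and 4 (all, glutamatergic, deep, interneuron), and the strict gate 1, 3, 1 and 5 (upper, deep, dorsal progenitor, interneuron). Leaving out 1 embryo gave 3 to 26, 3 to 20, 4 to 19, 0 to 14, 0 to 4, 0 to 1 and 0 to 5 in the first order, the highest of the first 2 and of deep-layer cells without mutant 17. Of the 9 genes, 1 (Ash1l) was called without the filter in glutamatergic (−0.46) and deep-layer cells (−0.79). Without 1 embryo 0 to 1 were called in deep-layer cells, with Ash1l from −0.89 to −0.61. The share difference of glutamatergic cells with Ash1l, −3.04 percentage points, was −5.12 at 5% mitochondrial share and −2.20 at 500 UMIs, both with the smallest p possible.

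Between classes of controls, the 5% limit left 1 of 3 calls among the 9 genes in radial glia and 0 of 3 in interneurons. Without 1 control, 1 to 2 and 0 to 2 remained, the 0 without control 15. Without the filter 1 was called in interneurons, 2 in Cajal-Retzius cells and 1 between layers, and the mutant embryos gave 2 in intermediate progenitors. Genes called at the 5% limit were 1172 (intermediate progenitor), 894 (interneuron) and 954 (layers). For the layers the strict gate gave 919 and DESeq2 514. Leaving out 1 control gave 1324 to 1519 of 2091 in intermediate progenitors, 778 to 1166 of 1465 in interneurons and 1152 to 1442 of 1843 in Cajal-Retzius cells. For the difference of effects, genes called in glutamatergic minus interneuron cells (1) became 5 at the 5% limit, 7 with the strict gate, 8 without the filter, 0 with DESeq2 and 1 to 5 without 1 embryo. Deep minus upper layers (2) gave 4, 14 without the filter, 0 with DESeq2 and 0 to 7. Cycling minus glutamatergic (0) gave 1 at 300 genes, 1 without the filter and 0 to 1. The cause of these moves was not tested. A strict gate left too few intermediate-progenitor, cycling and Cajal-Retzius cells for these fits. With 10 to 39 UMIs of Setmar per embryo and 14 to 75 UMIs behind several class values, depth limits every statement on rare genes and classes.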

Other observations

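In the lists around H3K36 methylation, genes were called between cell classes of the controls and none between genotypes. The genes named here were chosen after their values were seen. In cycling cells 14 of 32 tested list genes differed from glutamatergic cells (43.7% of all genes did), 10 of them higher. Rbbp4 shares the Polycomb repressive complex with Ezh2, Suz12 and Eed, and these were higher in cycling cells by 1.28, 1.04 and 0.94 on the log2 scale. Of the same complex, Ezh1 was lower by 0.99. The Rbbp4 paralog Rbbp7 was higher by 0.93 and the readers Hdgf and Phf19 by 1.20 and 5.07, while the demethylase Kdm2b was lower by 0.98 (adjusted p from 4.00e-13 for Hdgf to 0.0437 for Ezh1, edgeR). The Phf19 value rests on 2, 4 and 6 UMIs in glutamatergic cells of controls 14, 15 and 16 and on 16, 11 and 10 UMIs in their cycling cells, 0.43 to 1.02 CPM against 21.7 to 53.1 CPM. Phf19 was higher in radial glia too, by 4.17 (adjusted p = 2.95e-08).

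In radial glia, too, 14 of 32 list genes differed (46.8% of all genes did). Dnmt3a was higher there by 0.86, in interneurons by 0.72 and in Cajal-Retzius cells by 1.82 (adjusted p = 2.25e-07, 1.56e-04 and 3.90e-13). Kdm2b was lower in radial glia by 0.92 and in Cajal-Retzius cells by 0.73. In interneurons 3 of 32 list genes were called, all higher, namely Kdm2a, Dnmt3a and Jarid2, beside 15.7% of all genes, which is a larger share.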
